A study of Homo sapiens with 6 samples.

Results

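The TRIM (tripartite motif) genes encode a family of E3 ubiquitin ligases. Their transcripts were followed in PC3 cells with and without depletion of Mic60, a structural protein of the mitochondrial inner membrane. Members were found by symbol. The Ensembl identifiers of the deposited count table were paired with gene symbols, and every gene named TRIM plus a number, with or without a closing letter and digit, was taken, while pseudogenes carrying a P, antisense genes and readthrough genes were left out. This gave 76 TRIM genes among 57736 rows. Of the 76, 10 formed a list of interferon-responsive members (TRIM5, TRIM14, TRIM21, TRIM22, TRIM25, TRIM26, TRIM34, TRIM38, TRIM56 and TRIM69), drawn from general knowledge of TRIM genes that type I or type II interferon induces, and the other 66 served as the rest of the family. The list was chosen with earlier results of these data known, so it is not independent of them.

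PC3 is a human prostate cancer cell line grown out from a bone metastasis. RNA sequencing covered 3 libraries named siCTRL, of genotype Mic60 WT, and 3 named siMic60, of genotype Mic60 KO. The names are in the form used for siRNA and the genotypes in that used for a knockout. How Mic60 was depleted in PC3 cells is not given in the sources used here. All 6 libraries came from 1 line with no further treatment in the labels. The study describes its replicates in general as biological, and the labels do not say whether these libraries came from separate cultures. A p-value reflects the spread among these libraries, which may be technical. The library kit yields tags from the 3′ end of polyadenylated RNA, and libraries held 6644495 to 8779877 counts each. Levels below are CPM, the counts scaled to library size after TMM normalization, a change is the fitted log2 fold change of siMic60 against siCTRL, and a gene was called when its edgeR adjusted p, was under 0.05 over the 14653 genes that reached 10 counts in 3 or more libraries.

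TRIM proteins share a RING domain, B-box zinc fingers and a coiled coil. The RING domain recruits an E2 enzyme that carries ubiquitin, the coiled coil pairs the proteins, and the part after it, most often a PRY-SPRY domain, selects the target. Many members act in defence against viruses, either by binding viral components directly or by tagging proteins of the RNA and DNA sensing pathways, and a share of them are themselves induced by interferon. Others work far from immunity, in gene silencing, in neurons or in development.

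IMMT, which encodes Mic60, was checked first and fell from 90.2 ± 1.14 to 7.23 ± 1.36 CPM (SD, n = 3 each; adjusted p = 4.29e-10 from edgeR), or to 8.12% of the control level. Of the defining markers of prostate luminal cells, KLK3 had no count in any library, while the 4 epithelial markers KRT8, KRT18, EPCAM and CDH1 together reached 520 to 654 CPM in siCTRL and 486 to 503 CPM in siMic60 libraries. They did not move as one: KRT8 rose 1.53-fold, EPCAM and KRT18 fell to 59.5% and 69.5% of control (adjusted p = 0.00149, 0.000486 and 0.0133 from edgeR), and CDH1 did not pass (adjusted p = 0.227). Their part in the results below was not tested. Of 10 leukocyte markers, 6 had no count in any library (CD163, CD2, CD3D, CD3E, MS4A1 and NKG7), and the 10 together were at 1.32 to 2.25 CPM in siCTRL and 0.922 to 2.69 CPM in siMic60 libraries. Pairs of libraries of 1 group correlated across genes at r = 0.974 to 0.985 (Pearson, log2 CPM), and pairs from different groups at r = 0.909 to 0.943. Genes are not independent replicates.

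The family split by list. Of the 76 genes, 42 had enough counts to be tested, 25 had no count in any library and 9 had counts under the minimum. In siMic60 cells 12 of the 42 rose and 4 fell, where 17.7% of all genes tested rose and 17.9% fell. The interferon-responsive list accounted for 9 of the 12 increases. Its 9 tested members rose, with no overlap between groups for any of them (23.7% of all genes tested lay higher in this way). Of the 9, 8 rose more than 2-fold, where 5.60% of all genes tested did. TRIM26 and TRIM56 lay just above that mark, a log2 fold change of 1, and fell under it with scaling by library totals (0.94 and 0.97). Of the members outside the list 2 fell more than 2-fold, as did 6.49% of all genes tested. They were TRIM2 and TRIM71, of which TRIM71 reached the minimum count only through the siCTRL libraries, where it was higher. The 9 tested members of the interferon-responsive list had a median log2 fold change of 2.00. That of the 33 other members tested was −0.14, and that of all genes tested 0.0022. With a broader list of 15 interferon-responsive genes, 12 of them tested, the median of the list was 1.10. Among those 33, 3 rose and 4 fell, and 26 did not pass the test. In bulk RNA, more cells expressing a gene and more RNA per cell cannot be told apart.

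**Figure D1:**
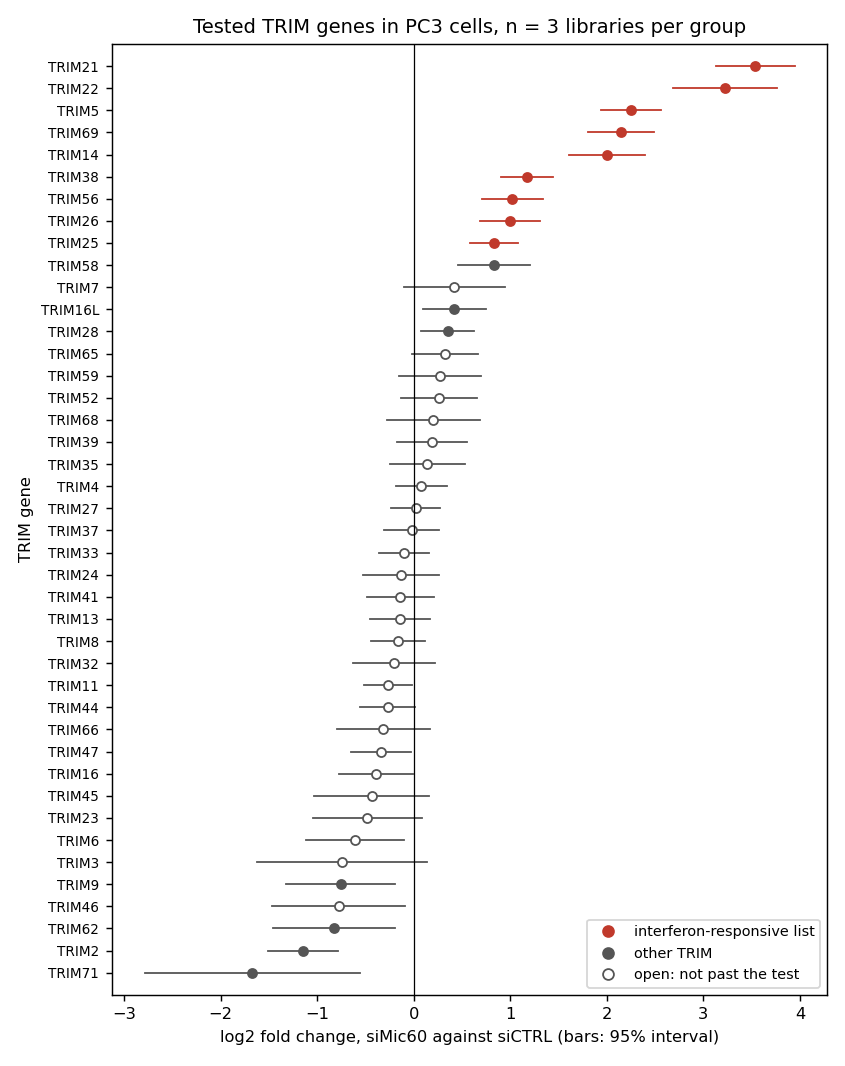
Log2 fold change of siMic60 against siCTRL (horizontal axis) for each of the 42 TRIM genes tested, with bars for the 95% interval; red marks the interferon-responsive list, grey the other members, and open circles those not past the test. The 9 red genes lie between 0.83 and 3.54, and the other 33 between −1.67 and 0.83.

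The summed level shows the same split on the scale of transcripts. The 9 tested interferon-responsive genes together were at 393, 364 and 368 CPM in the siCTRL libraries and at 1126, 933 and 1089.8 CPM in the siMic60 libraries, so every siMic60 library held more than any siCTRL library. The sum of the 33 other members was 1068, 1040.3 and 1094 CPM in siCTRL and 1060.0, 1050.3 and 998 CPM in siMic60 libraries, and these ranges overlap. As a share of the summed CPM of tested TRIM genes, the list went from 26.0% ± 0.886 to 50.3% ± 2.80 (SD, n = 3 each).

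TRIM21, TRIM22, TRIM5 and TRIM69 are known for restricting viruses directly. TRIM21 (ENSG00000132109), a cytosolic receptor for antibody-coated viruses, was at 2.52, 3.63 and 2.84 CPM in siCTRL and at 32.5, 34.8 and 37.1 CPM in siMic60 libraries. Among the 42 members tested it had the largest increase, 11.6-fold (95% interval 8.73 to 15.4; adjusted p = 4.53e-09 from edgeR; 3.54 ± 0.19 SE on the log2 scale), and ranked 41 by fold among the 14653 genes tested. TRIM22 (ENSG00000132274), which represses retroviral transcription, was at 5.03, 5.63 and 2.96 CPM in siCTRL and at 48.3, 28.8 and 50.6 CPM in siMic60 libraries. The groups stood far apart, at 9.34-fold (6.41 to 13.6; adjusted p = 2.38e-07), although siMic60 replicate 2 lay well under the other two. TRIM5 (ENSG00000132256), which binds the capsid of incoming retroviruses, rose 4.77-fold (3.84 to 5.92; adjusted p = 2.50e-08), from 11.9, 15.01 and 11.8 CPM to 61.3, 57.5 and 65.7 CPM. TRIM69 (ENSG00000185880), known to block vesicular stomatitis virus, was at 49.1, 35.4 and 30.6 CPM in siCTRL and at 172, 158 and 180 CPM in siMic60 libraries. Its 4.43-fold increase (3.50 to 5.61; adjusted p = 1.24e-07) was larger than the spread in either group.

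TRIM14, TRIM38, TRIM56 and TRIM26 are known as regulators of nucleic acid or Toll-like receptor sensing. TRIM14 (ENSG00000106785), which lacks a RING domain and serves as an adaptor at the mitochondrial protein MAVS, was at 52.6, 64.2 and 70.8 CPM in siCTRL and at 295, 174 and 282 CPM in siMic60 libraries. It rose by 2.00 on the log2 scale (as a fold, 3.05 to 5.24; adjusted p = 1.09e-06), again with siMic60 replicate 2 the lowest of its group. TRIM38 (ENSG00000112343), a regulator of Toll-like receptor and RNA sensor signalling, was nearly level across siCTRL libraries, at 53.5, 54.7 and 53.6 CPM, and stood at 136, 104 and 126 CPM after depletion. It rose 2.26-fold (1.87 to 2.72; adjusted p = 6.17e-06). TRIM56 (ENSG00000169871), a ligase tied to STING signalling, went from 25.6, 20.8 and 19.2 CPM to 45.5, 47.2 and 40.7 CPM, or 2.03-fold (1.64 to 2.52; adjusted p = 7.93e-05). TRIM26 (ENSG00000234127), which regulates IRF3 and interferon-β production, went from 29.1, 27.3 and 37.2 CPM to 70.1, 58.7 and 58.8 CPM, or 2.00-fold (1.61 to 2.48; adjusted p = 9.29e-05).

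TRIM25 (ENSG00000121060), the ligase that modifies the RNA sensor RIG-I and works with the antiviral protein ZAP, had the smallest fold of the 9 tested genes of the list. It was at 164, 137 and 139 CPM in siCTRL and at 266, 270.1 and 249 CPM in siMic60 libraries. The libraries did not overlap, and the increase was 1.78-fold (1.502 to 2.12; adjusted p = 6.20e-05 from edgeR). In absolute terms it kept the highest level of the family in both groups, with mean CPM of 147 and 262, ahead of TRIM28 in siCTRL (144 CPM, within the spread) and of TRIM14 in siMic60 cells (250.1 ± 66.5 CPM, also within the spread). These levels come from 3′ tags, 1 per transcript end, and were not divided by length. Each of the 9 genes kept its direction and its call under each of 13 alternative settings, with the largest adjusted p at 0.000928 (TRIM26).

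**Figure D2:**
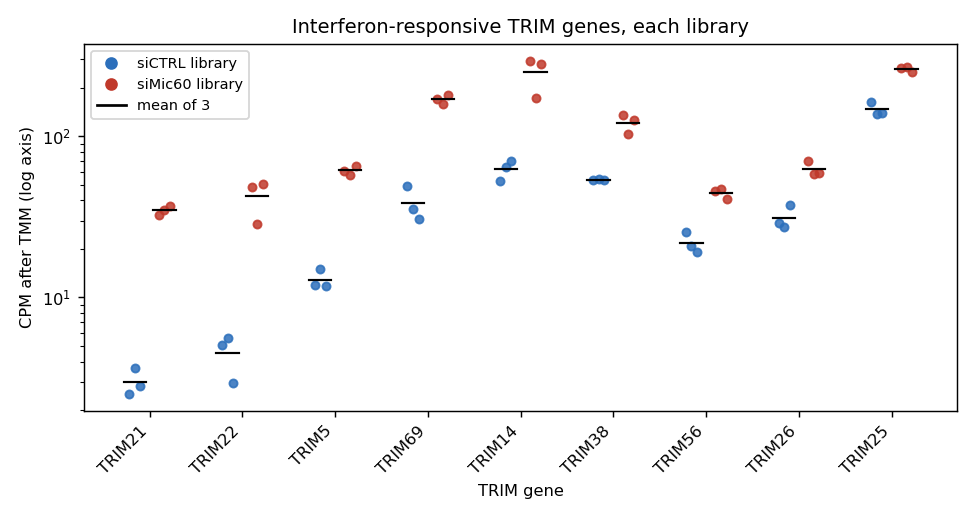
CPM after TMM scaling on a log axis for the 9 tested interferon-responsive TRIM genes, with 1 point per library (blue siCTRL, red siMic60, n = 3 each) and a line at each mean. For each gene the 3 siMic60 points lie above the 3 siCTRL points, from TRIM21 (mean 2.99 to 34.8 CPM) to TRIM25 (mean 147 to 262 CPM).

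TRIM34 (ENSG00000258659), the tenth member of the list and a close relative of TRIM5, fell short of the minimum count. It had no count in the 3 siCTRL libraries and 7, 10 and 41 counts in the siMic60 libraries. Set against 3 counts over the siCTRL group it was 20.2-fold higher, a figure that allows for counting error in the siCTRL group only. Without siMic60 replicate 3, which held 41 of the 58 counts, this figure was 9.43-fold, an alternative chosen after seeing the data. However, a readthrough gene joining TRIM6 to TRIM34 shares its 3′ end and was counted separately, at 21, 17 and 20 counts in siCTRL and 8, 29 and 0 counts in siMic60 libraries. Summed over both, the counts were 21, 17 and 20 against 15, 39 and 41, or 2.37 ± 0.212 against 3.93 ± 1.41 CPM (SD, n = 3 each), and the groups overlap. How the counting divided reads between the pair is not stated, and the fold for TRIM34 rests on that division.

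TRIM34 belongs to a run of TRIM genes that follow each other by lowest coordinate on chromosome 11 in RefSeq: TRIM5, TRIM6, TRIM34 and TRIM22. Within this run TRIM5 and TRIM22 rose 4.77-fold and 9.34-fold. TRIM6, also in this run, makes unanchored ubiquitin chains in interferon signalling. It was at 9.35, 9.51 and 12.2 CPM in siCTRL and at 7.51, 4.90 and 7.96 CPM in siMic60 libraries. Each of its siMic60 libraries was under each siCTRL library, but the change did not pass the test (log2 fold change −0.61, standard error 0.24, adjusted p = 0.0589). The annotated span of TRIM5 overlaps TRIM6 and TRIM34, and its start in the promoter window below lies at a higher coordinate than that of TRIM34. The strand setting of the counting is not given in the sources used here. A second run, on chromosome 6, placed TRIM26 (2.00-fold) beside TRIM39, which was at 13.5 ± 0.665 and 15.4 ± 1.63 CPM (SD, n = 3 each; adjusted p = 0.414), and beside TRIM15, which had no count.

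The windows upstream of the interferon-responsive members were read for the sites through which interferon signals reach a gene. Transcription factors that interferon activates, STAT2 and IRF9 among them, bind the interferon-stimulated response element (ISRE), and the gamma-activated sequence (GAS) is a further such site. STAT2 rose 3.41-fold and IRF9 rose 2.38-fold here (adjusted p at most 2.88e-05 from edgeR). RefSeq promoter windows of 300 bases (250 before and 50 after the annotated start, build GRCh38.p14) were matched for 60 of the 76 members and 9 of the 10 on the list, TRIM22 being the one without. The ISRE core was searched as GAAANNGAAA on both strands and the GAS element as TTCNNNGAA, which reads the same on both strands, and no match of one overlapped a match of the other in these windows.

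The ISRE core was found in 6 of the 9 windows of the list, in 4 of the 51 windows of other members, and in 3.57% of all 35116 windows. The 51 include windows of genes that were not tested. Among tested genes, 3 of 23 other members (13%) and 2.7% of all 10617 genes with a window held the core. The 6 are shown 5′ to 3′ on the gene's strand because these are all the windows of the list that hold the core. TRIM34 among them was not tested, and TRIM22 had no window. Capitals mark the match, either the core or its reverse complement, and each stretch ends at or before the start except that of TRIM21, whose 2 overlapping matches begin 18 bases into the transcript.
TRIM5, chr11:5685075-5685126, minus strand: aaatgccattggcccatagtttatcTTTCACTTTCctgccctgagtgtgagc
TRIM14, chr9:98119223-98119273, minus strand: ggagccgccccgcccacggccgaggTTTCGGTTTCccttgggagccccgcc
TRIM21, chr11:4393670-4393685, minus strand: GAAACTGAAAGTGAAA
TRIM26, chr6:30213560-30213625, minus strand: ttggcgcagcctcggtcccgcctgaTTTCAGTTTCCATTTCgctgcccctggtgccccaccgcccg
TRIM34, chr11:5624886-5624945, plus strand: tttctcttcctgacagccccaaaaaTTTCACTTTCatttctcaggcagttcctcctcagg
TRIM69, chr15:44736441-44736500, plus strand: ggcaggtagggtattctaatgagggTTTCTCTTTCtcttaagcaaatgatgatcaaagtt
The matches of TRIM5 and TRIM14 begin 27 and 26 bases before the start, that of TRIM69 62 bases and that of TRIM34 90 bases before it. TRIM26 holds 2 overlapping matches that begin 194 and 188 bases before its start. TRIM25, TRIM38 and TRIM56 held no match in their windows, and these were among the genes with smaller folds (1.78-fold to 2.26-fold), as was TRIM26, which held 2.

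A match in these letters did not go with an increase throughout the family. TRIM2, the member with the firmest decrease, holds the core 217 bases before its start, and TRIM16 and TRIM44, neither of which passed the test, hold it 80 and 35 bases before theirs. The TRIM2 stretch is given for comparison with the 6 above.
TRIM2, chr4:153151921-153151980, plus strand: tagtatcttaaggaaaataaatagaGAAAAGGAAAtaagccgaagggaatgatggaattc
The GAS element was found in 0 of the 9 windows of the list, in 10 of the 51 windows of other members and in 7.66% of all windows. The 10 include copies of the TRIM49 and TRIM64 groups, which had no count. Among tested genes, 3 of 23 other members (13%) and 6.34% of all genes with a window held it. A match is a description of letters in 1 annotated window per gene, and binding was not measured.

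The other 66 TRIM genes showed few and mostly small changes. After Mic60 depletion 3 rose (9.09% of the 33 tested, where 17.7% of all genes tested rose) and 4 fell (12.1%, where 17.9% fell), and with libraries scaled by their totals instead of TMM the split was 1 higher and 7 lower. TRIM58, a ligase known from red cell maturation, was at 15.1, 17.3 and 19.1 CPM in siCTRL and at 37.7, 28.8 and 25.4 CPM in siMic60 libraries. All 3 siMic60 libraries were higher, at 1.78-fold (1.38 to 2.30; adjusted p = 0.00176 from edgeR), as large as the fold of TRIM25, and it kept its call under all 13 alternatives. TRIM58 also stands on the broader list of 15 interferon-responsive genes, which adds TRIM6, TRIM15, TRIM31, TRIM35 and TRIM58, and in that list 10 of 12 tested members rose. TRIM35 was at 12.5 ± 1.53 and 13.7 ± 1.46 CPM (SD, n = 3 each; adjusted p = 0.588), and TRIM31 had 4 counts in all siCTRL and 11 in all siMic60 libraries.

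TRIM28, the corepressor KAP1 that silences endogenous retroviruses with KRAB zinc finger proteins, was at 134, 134 and 165 CPM in siCTRL and at 207, 181 and 166 CPM in siMic60 libraries. The lowest siMic60 library lay just above the highest siCTRL library, and the 1.28-fold increase (1.05 to 1.54; adjusted p = 0.0452) lost its call without siCTRL replicate 1 (adjusted p = 0.0964), siCTRL replicate 2 (0.173), siMic60 replicate 1 (0.157) or siMic60 replicate 2 (0.0622). TRIM24 and TRIM33, relatives of TRIM28 that also carry a PHD finger and a bromodomain, were at 18.0 ± 2.97 and 61.2 ± 4.93 CPM in siCTRL and at 16.4 ± 2.74 and 57.1 ± 4.13 CPM in siMic60 cells (SD, n = 3 each). Neither passed the test (adjusted p = 0.621 and 0.558), and the intervals of their log2 fold changes ran from −0.52 to 0.26 and from −0.36 to 0.16. TRIM16L, a TRIM16 relative that RefSeq lists as a transcribed pseudogene, was at 24.9, 25.1 and 21.5 CPM in siCTRL and at 29.4, 37.9 and 28.2 CPM in siMic60 libraries, or 1.34-fold (1.07 to 1.68; adjusted p = 0.0454). It can share reads with TRIM16, which was at 36.4 ± 9.18 and 27.8 ± 3.60 CPM (SD, n = 3 each; adjusted p = 0.102), and it lost its call without any 1 siCTRL library (adjusted p = 0.0510, 0.0804 and 0.166 without replicates 1, 2 and 3) or without siMic60 replicate 2 (0.192).

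The 4 decreases were those of TRIM2, TRIM71, TRIM9 and TRIM62. TRIM2 (ENSG00000109654), an NHL-repeat ligase that protects axons, was at 37.6, 29.6 and 30.1 CPM in siCTRL and at 14.4, 12.2 and 17.3 CPM in siMic60 libraries. The groups did not overlap, and TRIM2 fell to 45.2% of the control level (adjusted p = 0.000110 from edgeR; −1.15 ± 0.17 SE on the log2 scale), a call kept under all 13 alternatives. TRIM71, an NHL-repeat protein of stem cells, had 12, 12 and 10 counts in siCTRL and 2, 4 and 4 counts in siMic60 libraries. It entered the test only through its siCTRL counts, and its log2 fold change of −1.67 (standard error 0.52, adjusted p = 0.0219) missed the threshold without siMic60 replicate 1 (adjusted p = 0.0542). The remaining NHL members were TRIM3, at 2.16 ± 0.472 and 1.30 ± 0.287 CPM, and TRIM32, at 16.3 ± 4.03 and 14.1 ± 1.32 CPM (SD, n = 3 each; adjusted p = 0.180 and 0.450).

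Of 2 tested COS-box members, TRIM9, a brain-enriched ligase, was at 7.79, 8.38 and 6.16 CPM in siCTRL and at 3.53, 4.16 and 5.42 CPM in siMic60 libraries. It fell to 59.2% of control (adjusted p = 0.0369), while TRIM46, which organises axonal microtubules, was at 5.02 ± 1.27 and 2.90 ± 0.763 CPM (SD, n = 3 each) and did not pass (adjusted p = 0.0742). TRIM62, linked to the polarity of mammary epithelium, was at 8.75, 7.63 and 6.16 CPM in siCTRL and at 5.67, 4.53 and 2.65 CPM in siMic60 libraries, or 56.3% of control (adjusted p = 0.0410). For both TRIM9 and TRIM62 each siMic60 library lay under each siCTRL library. TRIM9 lost its call without siCTRL replicate 1 (adjusted p = 0.0827), siCTRL replicate 2 (0.126), siMic60 replicate 1 (0.113) or siMic60 replicate 2 (0.0949), and TRIM62 without siCTRL replicate 1 (0.122), siCTRL replicate 2 (0.0904), siMic60 replicate 2 (0.0748) or siMic60 replicate 3 (0.162). Of the counts by direction, the 3 increases of the other members came down to 1 without siCTRL replicate 1, siCTRL replicate 2 or siMic60 replicate 2. The 4 decreases came down to 1 without siCTRL replicate 1 and to 2 without siCTRL replicate 2, siMic60 replicate 1 or siMic60 replicate 2. Part of the drop without a siCTRL library is that TRIM71 was then not tested.

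**Figure D3:**
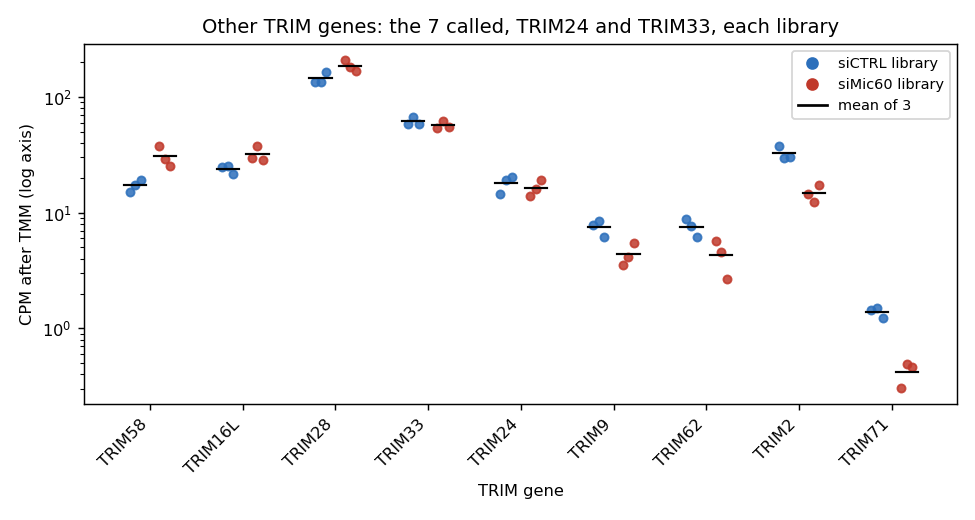
CPM after TMM scaling on a log axis for the 7 called TRIM genes outside the interferon-responsive list and for TRIM24 and TRIM33, with 1 point per library (blue siCTRL, red siMic60, n = 3 each) and a line at each mean. TRIM58 (mean 17.2 to 30.6 CPM) and TRIM2 (mean 32.5 to 14.6 CPM) are clearly separated, while the points of TRIM24 and TRIM33 overlap.

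Grouped by the domain after the coiled coil, the PRY-SPRY members included 9 of the 10 genes of the interferon-responsive list. Outside the list, however, 14 PRY-SPRY genes were tested, of which 1 rose (TRIM58) and 1 fell (TRIM62), or 7.14% each way against 17.7% and 17.9% of all genes tested, and 12 did not pass. TRIM27, with a mean of 59.5 CPM in siCTRL cells and 60.33 CPM after depletion, and TRIM4, with 36.2 and 38.3 CPM, had fold intervals of 0.849 to 1.21 and 0.880 to 1.27. TRIM11, among the most abundant of these, was at 141, 116 and 127 CPM in siCTRL and at 108, 105 and 107 CPM in siMic60 libraries. Its siMic60 libraries all lay lower, without passing the test (adjusted p = 0.0921). TRIM37, a ligase of centrosomes that carries a MATH domain, was at 82.4 ± 11.4 and 81.2 ± 8.29 CPM (SD, n = 3 each; adjusted p = 0.927).

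**Figure D4:**
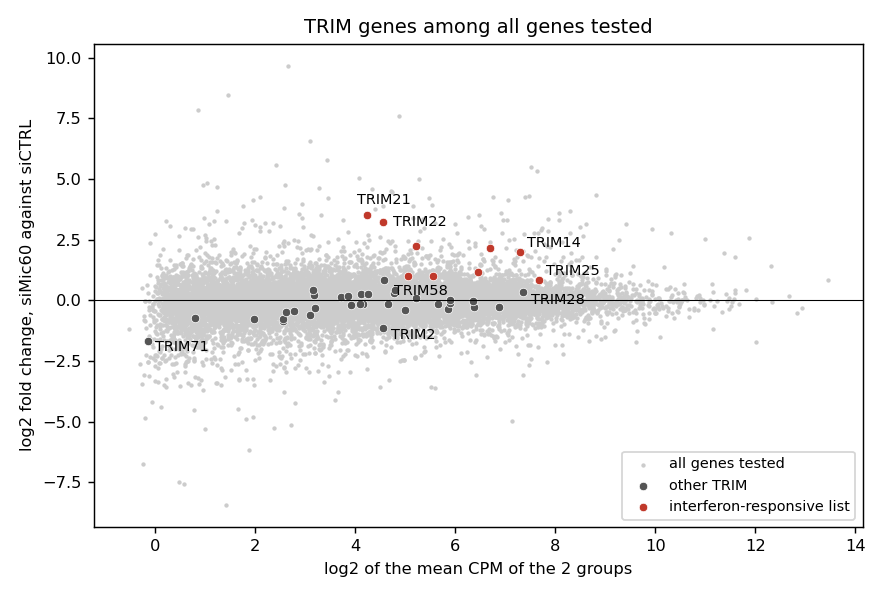
Log2 fold change of siMic60 against siCTRL (vertical axis) against the log2 of the mean CPM of both groups (horizontal axis) for the 14653 genes tested (light grey), the 33 other TRIM genes (dark grey) and the 9 tested interferon-responsive TRIM genes (red). The red genes span levels from TRIM21 to TRIM25 and lie at 0.83 or more, and the dark grey genes lie near 0 apart from TRIM2, TRIM71 and a few others.

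TRIM proteins known by other symbols were read alongside. PML, the organiser of nuclear bodies and itself an interferon-induced TRIM protein, rose 3.66-fold (3.05 to 4.38; adjusted p = 2.71e-08 from edgeR), its levels being 30.7 ± 1.41 and 113 ± 8.10 CPM (SD, n = 3 each). MID1, a microtubule-bound ligase, fell to 77.3% of control (adjusted p = 0.0415), its relative MID2 was at 7.12 ± 0.632 and 9.66 ± 0.583 CPM (SD, n = 3 each; adjusted p = 0.115), and MEFV was too low to be tested.

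Targets, partners and E2 enzymes of TRIM ligases were read from 2 lists, also chosen with earlier results of these data known. Of 16 measured targets and partners in nucleic acid sensing, 9 rose (56.2%, where 17.7% of all genes tested rose), 2 fell (12.5%, where 17.9% fell) and 5 did not pass, with a median log2 fold change of 0.95. RIGI, the sensor that TRIM25 modifies, rose 7.80-fold, with 48.1 ± 3.83 CPM in siCTRL and 376 ± 43.2 CPM in siMic60 libraries (SD, n = 3 each). IFI35 and IFIH1 rose 10.5-fold and 10.9-fold, and the transcription factor IRF7 rose 4.09-fold (adjusted p at most 1.33e-08 from edgeR). The 2 that fell, named after their values were seen, were MAVS, the mitochondrial adaptor to which TRIM14 binds, at 52.4% of control (44.4 ± 2.75 to 23.3 ± 2.45 CPM; SD, n = 3 each), and TRAF3, the ligase downstream of it, at 50.4% (70.0 ± 4.38 to 35.3 ± 4.48 CPM). Of 12 E2 enzymes that serve TRIM ligases or the interferon response, 3 rose (25%), 2 fell (16.7%) and 7 did not pass, shares near those of all genes tested. UBE2L6, the E2 for ISG15, rose 6.78-fold, UBE2E3 3.05-fold and UBE2V1 1.63-fold, while UBE2V2 fell to 51.8% of control (adjusted p at most 0.000251). UBE2N, the catalytic partner of UBE2V1 and UBE2V2, was at 144 ± 10.8 and 156 ± 11.8 CPM (SD, n = 3 each; adjusted p = 0.485).

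Members outside the test were silent or near the limit of detection. Over each group 3 counts correspond to 0.123 CPM in siCTRL and 0.128 CPM in siMic60 libraries, which is the level that a count of 0 allows. The 25 genes with no count included the TRIM43, TRIM49 and TRIM64 groups, which have near-identical copies, and TRIM10, TRIM15, TRIM17 and TRIM63. Of the 9 with counts under the minimum, TRIM34 is described above, TRIM73 had 24 counts in siCTRL libraries and 18 in siMic60 libraries, and TRIM29 had 12 and 16. TRIM31, TRIM36, TRIM54, TRIM55, TRIM60 and TRIM72 each had at most 11 counts in either group. No difference was detectable at this depth for TRIM60 and TRIM72, which had 1 count over siCTRL and 1 and 2 counts over siMic60 libraries.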

How the data were processed

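RNA of PC3 cells (3 siCTRL and 3 siMic60 libraries) was sequenced by the authors, who deposited whole-number counts per Ensembl gene without normalization. RSEM 1.2.3, DESeq2 and hg19 (GRCh37) appear in the submitters' processing notes, without their roles. RSEM estimates counts, so the values may be rounded estimates. For the aligner, annotation and strand handling: not given in the sources used here. Overlapping and near-identical genes are uncertain.

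Symbols were paired with 39991 of 57736 identifiers (39501 from a table of current names, 490 from GENCODE). The test was edgeR 4.0.16 in R 4.3.3 (TMM, at least 10 counts in at least 3 libraries, quasi-likelihood test, Benjamini-Hochberg over all genes tested). Standard errors are the log2 fold change divided by the square root of F. The count step was tested on simulated data in which few genes changed, so that test cannot check the scaling where many genes change, as here. Alternatives were DESeq2 1.42.0, limma-trend (limma 3.58.1, prior count of 2), other scalings, other minimum counts, a replicate block, a broader interferon-responsive list and each library left out in turn. TRIM members and gene lists were chosen with earlier results of these data known. Named were each interferon-responsive member, up to 8 called others in each direction by adjusted p, the 3 highest in CPM, TRIM24, TRIM28 and TRIM33, the TRIM proteins of other symbol, and the 4 most significant called partners and E2 enzymes. Others were named after their values were seen. IKBKE was not matched to a symbol. Some genes of the marker and context lists are not reported here. Promoter windows are from RefSeq (GRCh38.p14). Python 3.11.15 with pandas 2.3.3 was used.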

Additional observations from a re-analysis of the deposited data

How the results depend on the processing

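The 9 increases of the interferon-responsive list were found under each of the 13 alternative fits, with 0 decreases by edgeR or DESeq2. With no minimum count there were 10, the tenth being TRIM34. It enters only through its siMic60 counts, and its groups overlap once the readthrough is added, so it adds no support. The median log2 fold change of the list was 1.88 to 2.21 when 1 library was left out. With the broader list it was 1.10. The other members were less stable. Left out 1 at a time, the libraries gave 1 to 4 increases and 1 to 4 decreases among them, with a median log2 fold change of −0.20 to −0.08, and 10 to 13 increases and 1 to 4 decreases over the family, while 2081 to 2300 genes rose and 2067 to 2333 fell in all. DESeq2 called 2 decreases (TRIM2 and TRIM62). Scaling by library totals, which moved the median of all genes to −0.05, called 7 decreases, adding TRIM6, TRIM11 and TRIM47, and 1 increase among the other members, and the cause was not tested. TRIM71 lost its call with no minimum count (adjusted p = 0.0729 from edgeR). The replicate block left 1 increase among the other members, TRIM58. Same-numbered libraries did not deviate together (r = −0.10, −0.03 and 0.03 for numbers 1, 2 and 3 across genes), and siCTRL replicate 1 correlated best with siMic60 replicate 2 (r = 0.12). A lack of shared deviation cannot show whether same-numbered libraries were prepared together. No other call on a TRIM gene changed under the block except those of TRIM16L, TRIM28 and TRIM9. Of 230 refits of single named genes, 28 lost a call and none changed direction. The 230 include refits of TRIM24 and TRIM33, which had no call to lose. All 28 fell on called members outside the list: TRIM16L (9 of 13 refits), TRIM28 (6 of 13), TRIM9 (6 of 13), TRIM62 (4 of 13) and TRIM71 (3 of 9). Depth limits the genes under about 10 counts.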

Other observations

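Of 5 tested transcripts with TRIM symbols that are not members (antisense, divergent, readthrough or pseudogene), 1 rose and 1 fell, where 17.7% and 17.9% of all genes tested did. TRIM52-AS1, TRIM8-DT and the TRIM6 to TRIM34 readthrough did not pass (adjusted p = 0.550, 0.261 and 0.554 from edgeR). TRIM7-AS2, an antisense transcript at the TRIM7 locus, was at 11.7, 8.13 and 8.51 CPM in siCTRL and at 4.45, 5.87 and 3.92 CPM in siMic60 libraries. The groups did not overlap, and it fell by 0.99 on the log2 scale (standard error 0.26, adjusted p = 0.00711 from edgeR), while TRIM7 itself was at 7.63 ± 1.84 and 10.1 ± 2.21 CPM (SD, n = 3 each) and did not pass (adjusted p = 0.198). Since the strand setting of the counting is not given in the sources used here, reads of the pair cannot be told apart with certainty. The pseudogene TRIM64EP was at 10.7, 7.75 and 5.30 CPM in siCTRL and at 14.9, 15.2 and 14.3 CPM in siMic60 libraries. It rose by 0.90 ± 0.23 (SE) on the log2 scale (adjusted p = 0.00693), although TRIM64, TRIM64B and TRIM64C had no count in any library. Both transcripts were named after their values were seen.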
